A study of Rattus norvegicus with 35 samples.

Results

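The 9 genes described here make heme in the cell or carry electrons to its cytochrome P450 enzymes. They are the heme synthesis genes Alas1, Alad, Urod, Cpox, Ppox and Fech, and the electron supply genes Por, Cyb5a and Cyb5r3. They were chosen by gene symbol, and the probe sets annotated to them alone were read from the value table, which gave 10 of 31042 probe sets that are not controls (Por has 2, every other gene 1). All 9 genes lay above the array median in 35 of 35 arrays and were among the 10490 of 14217 genes tested. The cells were primary rat hepatocytes, liver cells taken from the animal and kept in culture, exposed for 72 h through the medium. The exposures were the triazole fungicides myclobutanil, propiconazole and triadimefon at 10, 30 and 100 uM, phenobarbital (PB) at 200 uM and pregnenolone carbonitrile (PCN) at 30 uM, and the vehicle was DMSO at 0.1%. Each group held 3 arrays, 1 for each of the label codes Rs256, Rs293 and Rs304, except PCN with 2 (Rs293 and Rs304).

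Heme is built from glycine and succinyl-CoA in a chain of steps that begins and ends in the mitochondrion. Alas1 catalyses the first step, which limits the rate in liver and is held down by heme itself, and Fech catalyses the last, the insertion of iron. Much of the heme made in hepatocytes goes into cytochrome P450 enzymes, which Por supplies with electrons from NADPH, while cytochrome b5 (Cyb5a) and its reductase (Cyb5r3) supply electrons to fatty acid desaturases and sterol enzymes and, for some P450 reactions, the second electron. Drugs that activate the receptors CAR and PXR, such as PB and PCN in rodents, are textbook inducers of Alas1 and Por along with P450 genes.

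The promoters of the 4 genes whose values moved most in the exposures are shown because motifs in them can be read beside those values. The windows run from 250 bases before to 50 after each start in RefSeq's rat build GRCr8, and 8 of the 9 genes have one. Capitals mark the NRF1 motifs (TGCGCA and GCGCATGC, which overlap here) in Alas1 and the Sp1 motif GGGCGG, on either strand, in the other 3. The windows lie at chr8:115768593-115768892 on the minus strand for Alas1, chr18:60248476-60248775 on the minus strand for Fech, chr12:26635760-26636059 on the minus strand for Por and chr18:80487759-80488058 on the plus strand for Cyb5a.
Alas1: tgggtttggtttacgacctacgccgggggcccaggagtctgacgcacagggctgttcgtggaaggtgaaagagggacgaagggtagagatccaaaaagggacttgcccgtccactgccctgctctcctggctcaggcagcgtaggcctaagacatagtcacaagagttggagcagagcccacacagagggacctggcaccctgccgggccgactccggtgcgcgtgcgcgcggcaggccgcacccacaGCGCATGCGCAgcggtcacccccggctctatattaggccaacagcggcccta
Fech: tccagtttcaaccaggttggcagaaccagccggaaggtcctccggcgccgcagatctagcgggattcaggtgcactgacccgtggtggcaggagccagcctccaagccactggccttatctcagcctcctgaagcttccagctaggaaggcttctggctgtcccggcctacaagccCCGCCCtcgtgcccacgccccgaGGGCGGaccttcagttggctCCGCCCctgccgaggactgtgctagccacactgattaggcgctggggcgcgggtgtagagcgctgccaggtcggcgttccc
Por: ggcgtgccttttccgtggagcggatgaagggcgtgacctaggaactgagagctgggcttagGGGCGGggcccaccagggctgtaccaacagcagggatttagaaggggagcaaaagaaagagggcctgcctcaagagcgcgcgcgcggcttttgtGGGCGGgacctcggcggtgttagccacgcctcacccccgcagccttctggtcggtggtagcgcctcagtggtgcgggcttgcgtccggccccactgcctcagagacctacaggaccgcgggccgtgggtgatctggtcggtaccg
Cyb5a: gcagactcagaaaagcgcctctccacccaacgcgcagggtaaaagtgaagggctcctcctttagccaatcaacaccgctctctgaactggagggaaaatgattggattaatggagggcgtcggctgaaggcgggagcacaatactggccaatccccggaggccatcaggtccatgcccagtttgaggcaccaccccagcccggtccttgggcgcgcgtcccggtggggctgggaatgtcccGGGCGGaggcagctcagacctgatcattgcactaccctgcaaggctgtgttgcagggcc

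Alas1 was the only one of the 8 genes with an NRF1 motif in its window. The short form TGCGCA is in 7.24% of all 33469 windows and the longer GCGCATGC in 2.47%. The Alas1 window holds the long form on both strands, beginning 2 bases before the start, and it was also the only one of the 8 without the Sp1 motif GGGCGG, which is in 33.1% of all windows. The other 7 genes hold between 1 (Ppox, Cyb5a) and 6 (Alad) copies of that motif, some of them overlapping. Of the motifs bound by nuclear receptors of the CAR and PXR kind, AGGTCA occurs once in Por and AGTTCA once in Cyb5a. Each is thus in 1 of 8 windows, near the 16.2% and 14.5% of all windows that hold them. Neither was found as a direct repeat of itself or the other with NNNN between the copies. Only 0.0179% of all windows hold such a repeat, so its absence from 8 windows cannot set these genes apart. No window of the 8 holds TATAAA (14.2% of all windows), and CACGTG (6.42%) has 2 matches in Alad and 1 in Urod. The share of G and C bases in the 8 windows was 53.7% to 66.3%, against a median of 51.7% over all windows. All windows are therefore not a matched background for these motifs, and the part of base content was not tested.

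Values are in units of the deposited log-like scale after quantile normalization across arrays, and because its base is not stated no fold changes are given. In the values as deposited, the spread of the propiconazole 30 uM array of Rs293 (SD 0.941) exceeded that of every other array (0.646 to 0.754). After normalization, the gap between the 3' and 5' actin control probe sets was largest in this array (0.994) and in the propiconazole 30 uM array of Rs256 (0.987). It was 0.509 to 0.914 in the other arrays, and its part in the values at propiconazole 30 uM was not tested. Hepatocyte markers were high in every group (13 of 14 measured, mean level 3.02 to 3.30 over arrays), and lowest with propiconazole at 100 uM (3.02 to 3.19, against 3.14 to 3.30 with DMSO). They include the P450 gene Cyp2c11, which itself changed by -0.54 against DMSO with propiconazole at 100 uM, and Alb, which stood at 4.33 in all arrays. The mean of the markers is therefore not a measure of hepatocyte content alone. Markers of other cells had lower mean levels. Of 8 erythroid markers measured, 5 passed the filter on low values, 2 (Alas2 and Epb42) stayed below the array median in all arrays, and the mean level was 0.16 to 0.29. Below the median in all arrays were also 5 of 10 macrophage markers (mean level -0.06 to 0.18), 1 of 10 stellate cell markers (-0.11 to 0.15), 2 of 6 cholangiocyte markers (0.19 to 0.45) and all 6 endothelial ones. Fits with limma were made without the Rs code and again with the code as a block. A change is called where its p, adjusted over all genes tested, is below 0.05, and "rose" or "fell" refers to the fit named. The study's design text calls the arrays of a group biological replicates, but what the code marks is not given, so p-values measure the spread between these arrays.

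The probe sets were 1367982_at (Alas1), 1367720_at (Alad), 1370878_at (Urod), 1377998_at (Cpox), 1377079_a_at (Ppox), 1390388_at (Fech), 1387109_at and 1368213_at (Por), 1386904_a_at (Cyb5a) and 1370808_at (Cyb5r3). By level, the electron supply genes and Alas1 stood above the other 5. Cyb5a averaged 3.09 over the 35 arrays (98.9th percentile of tested genes), Por 2.49 (96.7th), Alas1 2.28 (95.2nd) and Cyb5r3 2.08 (93.3rd). Urod, Alad, Fech and Cpox, enzymes of the middle and end of the pathway, averaged between 1.21 and 1.58, and Ppox, which oxidizes protoporphyrinogen before iron is inserted, was lowest at 0.39 (38.4th percentile). Probe sets differ in their response to RNA, so these levels rank signals rather than transcripts. Over arrays Alas1 varied most (SD 0.263) and Ppox least (SD 0.0355).

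**Figure D1:**
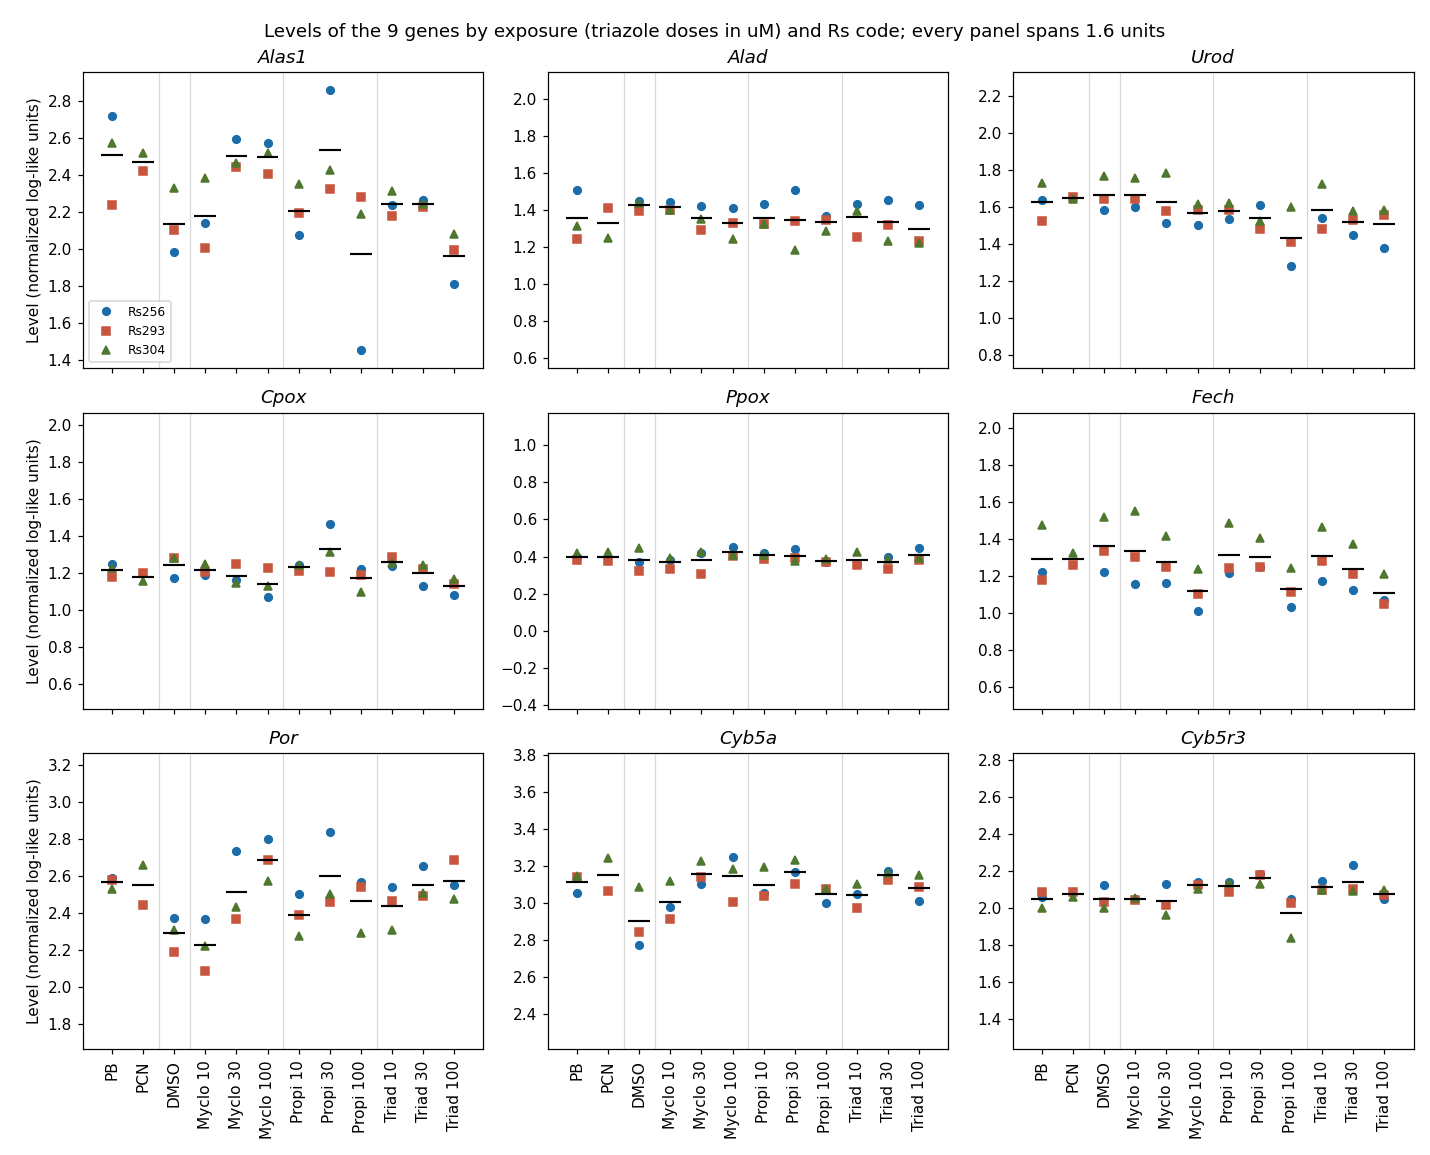
Level of each of the 9 genes (normalized log-like units) in PB 200 uM, PCN 30 uM, DMSO and the triazoles at 10, 30 and 100 uM; points are arrays, shaped by Rs code, and lines are group means. Alas1 runs between 1.46 and 2.86, while Ppox stays between 0.30 and 0.45.

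In the fit without the block only 1 member was called in any of 23 comparisons, Cyb5r3 in the dose slope of propiconazole, where 8.73% of all genes were called, so 1 of 9 is near its background. With the block, member counts rose together with those of all genes. Myclobutanil at 100 uM had 3 members called (2 up, 1 down), where 9.92% of all genes were called with the block and 1.21% without it. Propiconazole at 100 uM had 3 (1 up, 2 down), against 29.3% and 12% of all genes, so 3 of 9 members is near its background. Triadimefon at 100 uM had 3 (2 up, 1 down), against 11.8% and 1.83%. At 30 uM propiconazole had 2 members called (2.62% and 0.0381% of all genes), triadimefon 1 (1.05% and 0.0286%) and myclobutanil none (0.0191% and 0.00953%). All of these calls with the block ended when arrays were used as deposited or only median centred while the wide propiconazole array stayed in the fit. In bulk RNA from a culture, a lower value can come from fewer hepatocytes or from less RNA per cell, and these cannot be told apart.

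**Figure D2:**
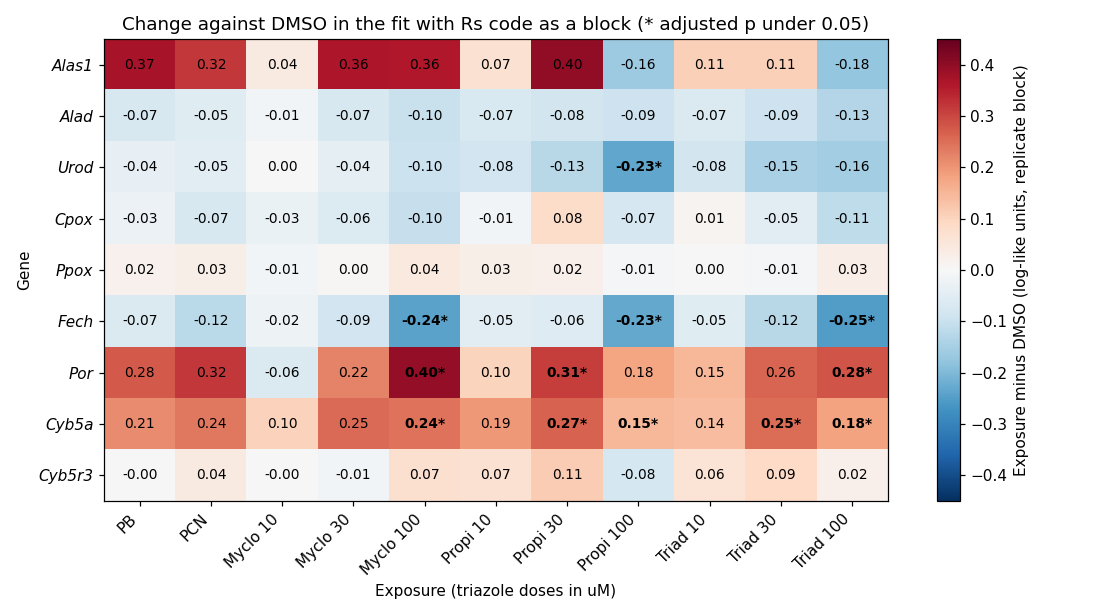
Change against DMSO (log-like units) of each of the 9 genes in the 11 exposures, from the fit with Rs code as a block; colour gives the size and direction, and bold values with an asterisk have an adjusted p under 0.05. The asterisks lie in the Por and Cyb5a rows (higher) and in the Fech and Urod rows (lower).

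Fech, ferrochelatase, was lower at 100 uM of every triazole in every code, by amounts that differed little between compounds. At myclobutanil 100 uM the levels were 1.01, 1.10 and 1.24 in Rs256, Rs293 and Rs304, against 1.23, 1.34 and 1.52 with DMSO. At propiconazole 100 uM they were 1.03, 1.11 and 1.24. At triadimefon 100 uM they were 1.07, 1.05 and 1.21. The DMSO arrays themselves spread more widely than the change, with Rs304 the highest in all groups, and only the triadimefon values lay wholly below DMSO. Within codes all 9 differences, taken from the same 3 DMSO arrays, were negative, between -0.31 and -0.15. With the block Fech fell by 0.24 (SE 0.039, limma adjusted p = 0.000297) for myclobutanil, by 0.23 (adjusted p = 5.65e-05) for propiconazole and by 0.25 (adjusted p = 0.000172) for triadimefon. Without the block the adjusted p was 0.391, 0.168 and 0.294 for the 3 compounds. Mean levels of the hepatocyte markers in these groups were 3.11 to 3.26, 3.02 to 3.19 and 3.09 to 3.26, against 3.14 to 3.30 with DMSO, and their part in the result was not tested.

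Leaving out any 1 code or any 1 array of the compared groups ended none of these 3 calls in the blocked fit. In the values as deposited the blocked changes were -0.23, -0.21 and -0.23, with adjusted p of 0.234, 0.107 and 0.194, and of 0.0437, 0.0189 and 0.0357 with the wide propiconazole array left out. At 30 uM Fech averaged 1.28 with myclobutanil, 1.30 with propiconazole and 1.24 with triadimefon, against 1.36 with DMSO. These lower values did not pass the test (block adjusted p = 0.941, 0.496 and 0.118). The slope over 10 to 100 uM was negative in all 3 compounds, and with the block it was called at -0.22 units per log10 step of dose for myclobutanil (adjusted p = 0.00114), -0.19 for propiconazole (0.000791) and -0.20 for triadimefon (0.00806). The shares of all genes called in these slopes were 6.63%, 24.8% and 2.93% with the block, and 0.248%, 8.73% and 0.0763% without it. The myclobutanil slope was no longer called without Rs304 (-0.18), and the triadimefon slope without Rs293 (-0.18), Rs304 (-0.17), the 10 uM array of Rs293 (-0.19) or the 100 uM array of Rs304 (-0.17).

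**Figure D3:**
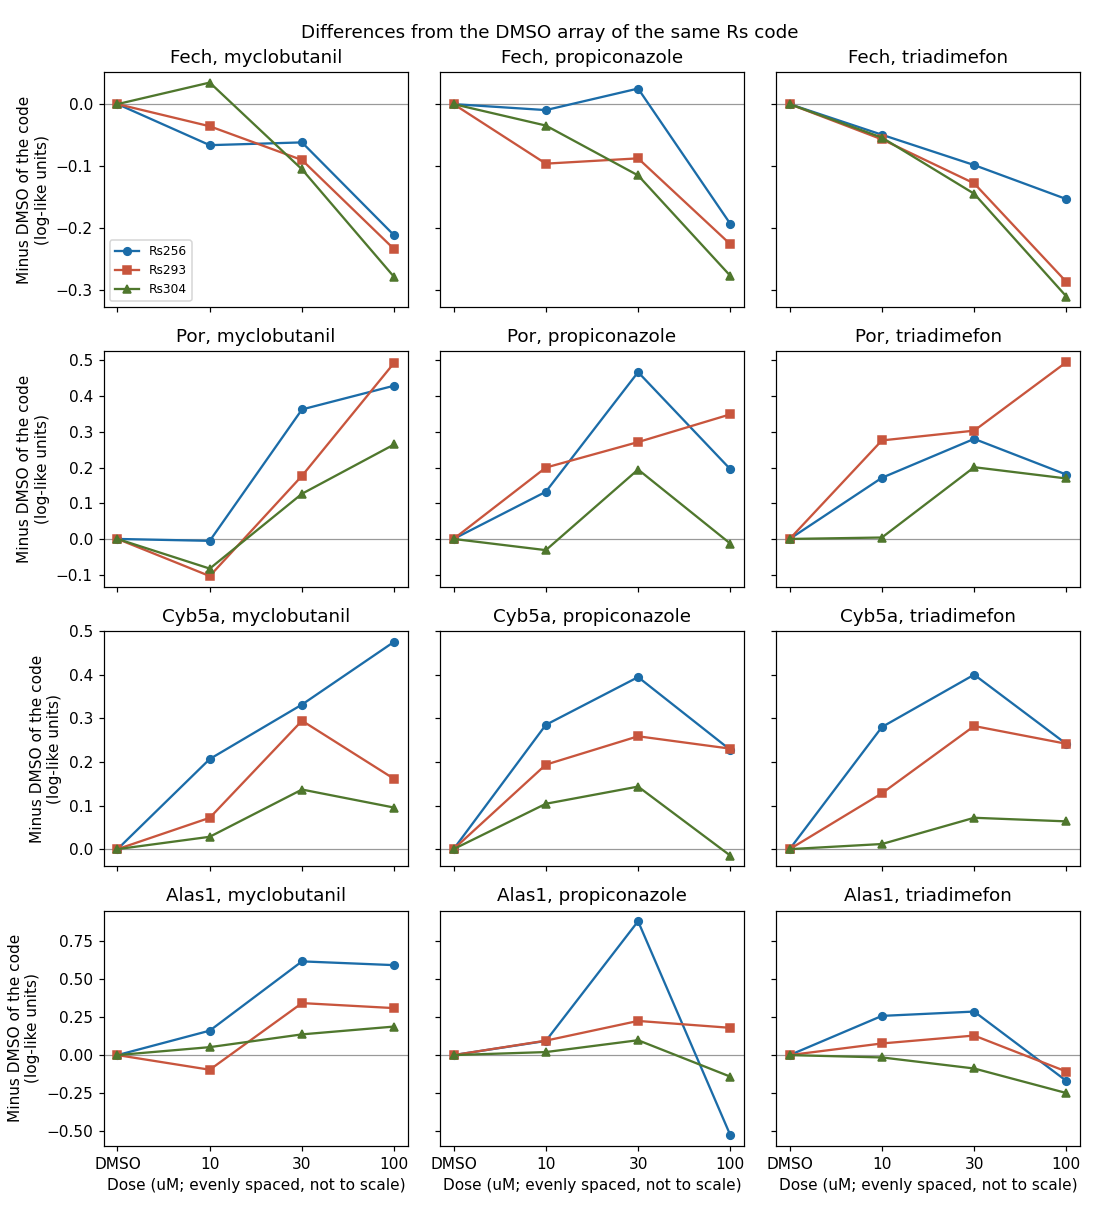
Difference from the DMSO array of the same Rs code (log-like units) along dose for Fech, Por, Cyb5a and Alas1 with each triazole; each line is 1 code. Fech falls below 0 in all 9 lines at 100 uM (-0.31 to -0.15), whereas Alas1 at propiconazole 100 uM lies between -0.52 and 0.18.

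Por, the reductase that hands NADPH electrons to all microsomal P450 enzymes, was highest with myclobutanil at 100 uM. Its levels there were 2.80, 2.69 and 2.57 in Rs256, Rs293 and Rs304, against 2.37, 2.19 and 2.31 with DMSO, and the groups did not overlap. Por rose by 0.40 (SE 0.076, limma adjusted p = 0.00142) with the block, and the adjusted p was 0.0648 without it. The rise followed dose, with a slope of 0.46 units per log10 step of dose (adjusted p = 0.000858 with the block, 0.0586 without). At 10 uM Por was lower than DMSO in all 3 codes, at 2.37, 2.09 and 2.23, a difference of -0.06 that was not called. Leaving out any 1 code or array did not end the calls for the 100 uM change or the slope in the blocked fit. In the values as deposited with the wide array left out, the 100 uM change was 0.46 (adjusted p = 0.0458) and the slope 0.47 (0.0597).

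With propiconazole Por was highest at the middle dose. It measured 2.84, 2.46 and 2.50 at 30 uM and 2.57, 2.54 and 2.29 at 100 uM, against the DMSO values above. With the block Por rose by 0.31 at 30 uM (adjusted p = 0.024, and 0.512 without the block), and the 0.18 at 100 uM was not called (0.0808). The 30 uM call ended without Rs256 (0.23), Rs304 (0.38), the DMSO array of Rs256 (0.30) or Rs293 (0.28) and the propiconazole array of Rs256 (0.24). With triadimefon Por measured 2.55, 2.69 and 2.48 at 100 uM, all above DMSO, and rose by 0.28 with the block (adjusted p = 0.0145, and 0.204 without it). That call ended without Rs293 (0.18), Rs304 (0.35), the DMSO array of Rs256 (0.27) or Rs293 (0.25) and the triadimefon array of Rs293 (0.20). At triadimefon 30 uM Por averaged 2.55 and was not called (0.0867).

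The 2 probe sets of Por, 1387109_at, used above, and 1368213_at, followed each other over the 35 arrays (Pearson r = 0.846), at mean levels of 2.49 and 1.97. With each probe set tested as a feature, the dimmer one changed by 0.42 with myclobutanil at 100 uM (block adjusted p = 0.0229) and by 0.47 per log10 step of dose (0.0181). For propiconazole at 30 uM it gave 0.35 (0.132), and for triadimefon at 100 uM 0.21 (0.288). Both probe sets thus called the myclobutanil rise, and only the brighter one the other 2.

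Cyb5a, cytochrome b5, was above the DMSO array of its own code in 31 of 32 exposed arrays, the exception being propiconazole 100 uM in Rs304 (-0.01). All these differences are taken from the same 3 DMSO arrays, so they are not separate comparisons. DMSO had the lowest mean of the 12 groups, 2.90, and its arrays spread from 2.77 in Rs256 to 3.09 in Rs304. Cyb5a measured 3.25, 3.01 and 3.19 with myclobutanil at 100 uM in Rs256, Rs293 and Rs304, against 2.77, 2.85 and 3.09 with DMSO. It rose by 0.24 there with the block (adjusted p = 0.00333, and 0.112 without it). The differences were largest in Rs256 (0.21 to 0.48 over exposures), smaller in Rs293 (0.07 to 0.30) and smallest in Rs304 (-0.01 to 0.15).

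At 30 uM Cyb5a measured 3.17, 3.10 and 3.23 with propiconazole and 3.17, 3.13 and 3.16 with triadimefon, all above DMSO in the 3 codes. With the block it rose by 0.27 (adjusted p = 0.00692) and 0.25 (0.0144), and by 0.15 (0.0325) and 0.18 (0.0202) at 100 uM of the same compounds. At myclobutanil 30 uM the change of 0.25 was not called (0.0972). In the values as deposited, the blocked change at propiconazole 30 uM was 0.75 (adjusted p = 0.156), and 0.14 (0.926) with the wide array, which belongs to that group, left out. The other 4 Cyb5a calls also stayed lost in the values as deposited with that array left out (adjusted p = 0.304 to 0.695). The 5 calls were not of equal firmness: that of myclobutanil ended without Rs256 (0.12), and the other 4 without the DMSO array of Rs256, at 0.21 and 0.09 for propiconazole 30 and 100 uM and 0.19 and 0.13 for triadimefon 30 and 100 uM. They also ended without any 1 code, except that propiconazole 100 uM kept its call without Rs304. Without single Rs293 arrays of DMSO or of the exposure, propiconazole 100 uM gave 0.14 and 0.11, triadimefon 30 uM 0.25 and 0.24, and triadimefon 100 uM 0.18 and 0.16, and none was called. Triadimefon also lost its calls without its 30 uM array of Rs256 (0.23) and its 100 uM array of Rs304 (0.18). Without a whole code the changes were 0.19, 0.28 and 0.34 for propiconazole 30 uM, 0.10 and 0.11 for propiconazole 100 uM, 0.17, 0.24 and 0.36 for triadimefon 30 uM and 0.14, 0.16 and 0.26 for triadimefon 100 uM.

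Cyb5r3, which reduces cytochrome b5 with NADH, was the only member called without the block. With rising propiconazole it measured 2.13, 2.03 and 2.00 with DMSO, 2.14, 2.09 and 2.14 at 10 uM, 2.18, 2.18 and 2.13 at 30 uM and 2.05, 2.03 and 1.84 at 100 uM in Rs256, Rs293 and Rs304. The level was thus highest at the middle dose and lowest at the top dose, where Rs304 was the lowest of all 35 arrays. The slope was -0.15 units per log10 step of dose (SE 0.047, adjusted p = 0.042, and 0.00472 with the block). In this slope 8.73% of all genes were called without the block and 24.8% with it. The member counts of 1 and 3 of 9 are near these shares. Against DMSO the changes were 0.11 at 30 uM and -0.08 at 100 uM, and neither was called (block adjusted p = 0.121 and 0.13). Without the block the slope was no longer called without Rs293 (-0.20), Rs304 (-0.08), any 1 of the 10 uM arrays (-0.17 to -0.14) or the 100 uM array of Rs304 (-0.09), and with the block without Rs304 or that array (-0.10).

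Alas1, which catalyses the rate-limiting step, had the widest range, and its order over groups was not the same in all codes. It measured 2.59, 2.44 and 2.46 with myclobutanil at 30 uM and 2.57, 2.41 and 2.52 at 100 uM in Rs256, Rs293 and Rs304, against 1.98, 2.10 and 2.33 with DMSO. Both groups lay wholly above DMSO. The changes were 0.36 and 0.36 (SE 0.158), with unadjusted p = 0.03 and 0.0309 and adjusted p = 1 and 0.393, and with the block the adjusted p was 0.862 and 0.141. With propiconazole at 30 uM Alas1 measured 2.86, 2.32 and 2.43, the highest group mean (2.54), and changed by 0.40 (adjusted p = 0.65, and 0.168 with the block).

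At 100 uM propiconazole the 3 codes parted: Alas1 was 1.46 in Rs256, 2.28 in Rs293 and 2.19 in Rs304, which is 0.52 below, 0.18 above and 0.14 below the DMSO array of the code. At triadimefon 100 uM it was 1.81, 1.99 and 2.08, below DMSO in all 3 codes and the lowest group mean (1.96). Neither change, -0.16 nor -0.18, was called (block adjusted p = 0.469 and 0.52). The Rs256 arrays gave both the greatest excess over their DMSO array (0.88) and the greatest deficit (-0.52), while the range was -0.11 to 0.34 in Rs293 and -0.25 to 0.24 in Rs304. Alas1 slopes on dose were 0.32 for myclobutanil, -0.24 for propiconazole and -0.29 for triadimefon, and none was called (block adjusted p = 0.219, 0.263 and 0.34).

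Of the 4 enzymes between Alas1 and Fech, only Urod was called. Urod, which removes carboxyl groups from uroporphyrinogen, measured 1.28, 1.41 and 1.60 with propiconazole at 100 uM in Rs256, Rs293 and Rs304, against 1.58, 1.64 and 1.76 with DMSO. It fell by 0.23 with the block (adjusted p = 0.00174, and 0.0533 without it), and leaving out any 1 code or array did not end that call. The hepatocyte markers were also lower in that group (3.02 to 3.19, against 3.14 to 3.30 with DMSO), and their part in the result was not tested. In the values as deposited the change was -0.21 and not called with the wide array left out (0.103). Urod was also lower than DMSO in all codes at myclobutanil 100 uM (mean 1.57) and triadimefon 100 uM (mean 1.51), without a call (block adjusted p = 0.299 and 0.0587). Its slope with propiconazole, -0.15 per log10 step of dose (block adjusted p = 0.0436), was lost on leaving out any 1 code (-0.22 to -0.09), any 1 of the 10 uM arrays (-0.17 to -0.14) or the 100 uM array of Rs293 (-0.15) or Rs256 (-0.10).

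Alad, which joins 2 aminolevulinate molecules into porphobilinogen, had a lower mean in all 11 exposures than with DMSO. All 11 gaps are taken from the same DMSO mean of 3 arrays, so they are not separate comparisons. The gap was small, from -0.13 at triadimefon 100 uM to -0.01 at myclobutanil 10 uM, and none was called. Cpox, coproporphyrinogen oxidase, averaged 1.14, 1.17 and 1.13 at 100 uM of myclobutanil, propiconazole and triadimefon, against 1.24 with DMSO, and was highest at propiconazole 30 uM (1.33), where Rs256 reached 1.46. Its lowest adjusted p among the 3 changes at 100 uM was 0.154, with the block. Ppox averaged 0.37 to 0.42 over the 11 exposures, against 0.38 with DMSO, and the 95% interval of its blocked change at 100 uM was -0.01 to 0.10 for myclobutanil, -0.06 to 0.05 for propiconazole and -0.03 to 0.09 for triadimefon.

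**Figure D4:**
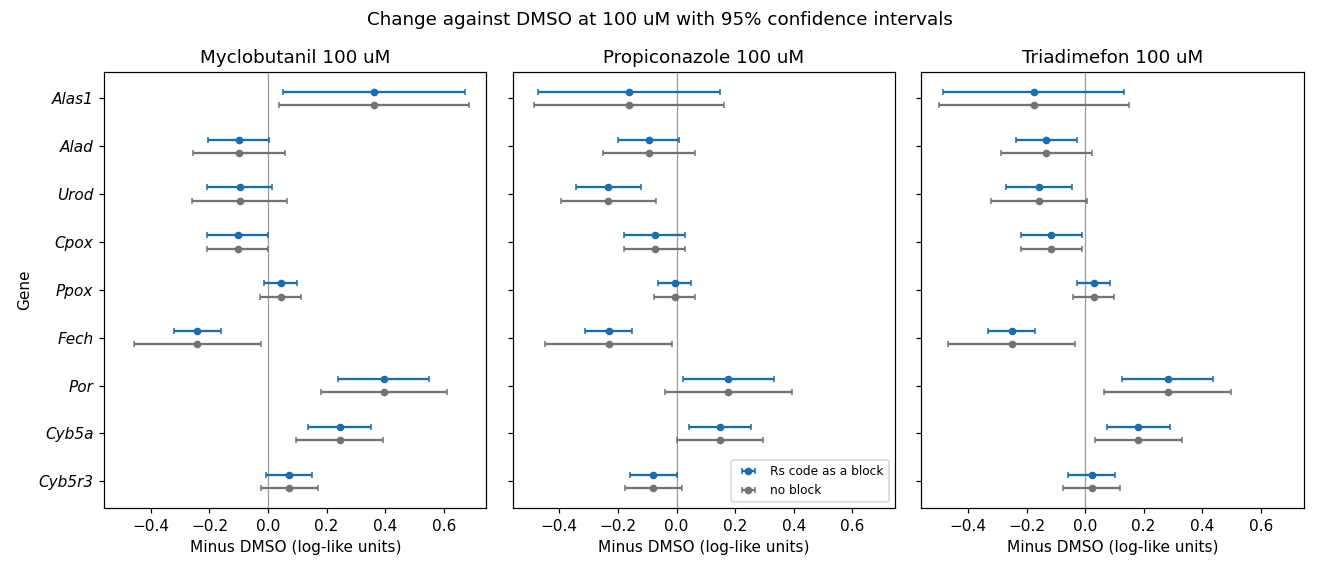
Change against DMSO (log-like units) of the 9 genes at 100 uM of each triazole, with 95% confidence intervals from limma with (blue) and without (grey) Rs code as a block, 3 arrays a group. The blocked intervals of Fech exclude 0 in all 3 panels, and those of Alas1 are the widest.

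PB and PCN raised no member past the test, and few of the genes tested were called with them. The shares of all genes called were 0.00953% and 0.0191% for PB without and with the block, and 0.00953% and 0.0286% for PCN. Alas1 measured 2.72, 2.23 and 2.57 with PB in Rs256, Rs293 and Rs304 and 2.42 and 2.52 with PCN in Rs293 and Rs304, above the DMSO array of the code in all 5. The change was 0.37 with PB (unadjusted p = 0.0268, adjusted p = 1) and 0.33 with PCN (unadjusted p = 0.0724, adjusted p = 1). Por measured 2.59, 2.58 and 2.53 with PB and 2.44 and 2.66 with PCN, all above the 3 DMSO arrays, and changed by 0.28 and 0.26 (unadjusted p = 0.0144 and 0.0349). Cyb5a changed by 0.21 with PB and 0.25 with PCN (unadjusted p = 0.0064 and 0.00412). With the block the adjusted p of Por was 0.473 and 0.523, and that of Cyb5a 0.36 and 0.372. The changes of the other 6 members lay between -0.10 and 0.02 in both exposures without the block.

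At 10 uM no member was called. The shares of all genes called were 0% without and 0.00953% with the block for myclobutanil, 0.00953% and 0.0191% for propiconazole, and 0% and 0.00953% for triadimefon. The greatest changes at this dose were those of Cyb5a with propiconazole (0.19), Por with triadimefon (0.15) and Cyb5a with triadimefon (0.14). Cyb5a was above the DMSO array of the code in all 9 arrays at 10 uM, which share 3 DMSO arrays.

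Setting the triazoles against each other at matched doses gave 9 pairs, and members differed in 1 of them. The compounds share a triazole ring, and myclobutanil carries a nitrile, propiconazole a cyclic ketal and triadimefon a ketone. At 100 uM Alas1 was lower with propiconazole (1.46, 2.28 and 2.19 in Rs256, Rs293 and Rs304) than with myclobutanil (2.57, 2.41 and 2.52), in every code. The difference was -0.52 (95% interval -0.83 to -0.21 with the block), with an adjusted p of 0.0343 with the block and 0.146 without it. Without the propiconazole array of Rs256 it was -0.25 and not called, and without all of Rs256 -0.22. The call also ended without Rs293 (-0.72), Rs304 (-0.64) or a myclobutanil array of Rs256 (-0.47), Rs293 (-0.55) or Rs304 (-0.56).

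Cyb5r3 was also lower with propiconazole at 100 uM (2.05, 2.03 and 1.84) than with myclobutanil (2.14, 2.13 and 2.10), and the groups did not overlap. The difference was -0.15 (adjusted p = 0.0178 with the block, 0.173 without it). It was not called without Rs293 (-0.18), Rs304 (-0.10), the myclobutanil arrays of Rs293 (-0.15) or Rs304 (-0.14), or the propiconazole array of Rs304 (-0.10). In this pair 7.09% of all genes were called with the block and 0.744% without it.

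Propiconazole against triadimefon at 100 uM had no member called (4.59% and 0.505% of all genes with and without the block), nor had myclobutanil against triadimefon (0.00953% and 0%). Alas1 was higher with myclobutanil, at 2.57, 2.41 and 2.52, than with triadimefon, at 1.81, 1.99 and 2.08, by 0.54 (95% interval 0.23 to 0.85 with the block), a difference as large as the called one, with adjusted p = 0.339. For Fech the blocked differences at 100 uM were within 0.02 units, with intervals of -0.07 to 0.09 for propiconazole minus myclobutanil, -0.06 to 0.10 for propiconazole minus triadimefon and -0.07 to 0.09 for myclobutanil minus triadimefon. No gene at all was called in the 6 pairs at 10 and 30 uM (0% in both fits).

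Over all exposures together, the moderated F test called none of the 9 members without the block (3.78% of all genes) and 6 with it (17.6%): Fech (adjusted p = 4.81e-05), Por (0.00114), Cyb5a (0.00862), Cyb5r3 (0.0186), Alas1 (0.0222) and Urod (0.0411). Differences between the Rs codes were called for 7 of the 9, where 69.5% of all genes were, and not for Alas1 (adjusted p = 0.244) and Cpox (0.815). Fech had the greatest code share: 55.0% of its variance over the 35 arrays went with code, 37.9% with group and 6.76% was residual. For Alas1 the shares were 4.83%, 59.5% and 35.2%. The code mean of Fech was 1.15 in Rs256, 1.22 in Rs293 and 1.39 in Rs304, while Por ran 2.60, 2.45 and 2.43 and Alad 1.44, 1.32 and 1.30.

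The group means of Por and Cyb5a ran together and tended to run opposite to those of Alad, and less closely opposite to those of Fech, Urod and Cpox. Over the 12 group means of the fit with group and code, Por and Cyb5a correlated at r = 0.81, Alad with Fech at 0.80, Alad with Urod at 0.78 and Cpox with Fech at 0.76. Between Por or Cyb5a and these 4 genes the signs were negative, with r = -0.76 between Alad and Por and -0.62 between Fech and Por. Several of these were weak, such as -0.13 for Cpox with Cyb5a, -0.30 for Cpox with Por and -0.31 for Urod with Cyb5a. Urod with Cpox gave only 0.24. Alas1 belonged to neither side, being positive with all 8 other members (for example 0.40 with Urod and 0.62 with Cyb5a), and Cyb5r3 was positive with both Cpox (0.39) and Por (0.37). The 12 points share their DMSO arrays, codes and normalization, so these values only describe. The tested genes whose group means most resembled Alas1 were Rd3 (r = 0.95), Eno1 (0.92), Mid1 (0.92), Apbb3 (0.91) and Ugt2a1 (0.90). Their group means had SDs of 0.02 to 0.07, against 0.21 for Alas1. Those most like Por were Bnip3l (0.94), Pcsk6 (0.93), Cyp2c22 (0.93), Klkb1 (0.92) and Cndp2 (0.91), with SDs of 0.09 to 0.19 against 0.14 for Por.

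Among genes that break down heme, Blvrb rose at 100 uM of every triazole. Of 4 tested (Hmox1, Hmox2, Blvra, Blvrb), 1 was called up without the block at 100 uM of each triazole. Of all genes 1.21% were called with myclobutanil, 12% with propiconazole and 1.83% with triadimefon. Blvrb, a biliverdin reductase, rose by 0.31 with myclobutanil, 0.43 with propiconazole and 0.28 with triadimefon (adjusted p = 0.0375, 0.000263 and 0.0493). The median change of the list was 0.12, 0.21 and 0.12, against 0.01 over all genes in each comparison. With the block 2 of 4 were called in each, against 9.92%, 29.3% and 11.8% of all genes. The other was Hmox1, heme oxygenase, which opens the heme ring and changed by 0.72, 1.08 and 0.72 (block adjusted p = 0.000136, 5.57e-08 and 0.000138).

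Of 20 heme and iron handling genes 16 were tested, and without the block they were called at propiconazole 100 uM alone among the 100 uM triazoles, PB and PCN, with 4 up and 1 down, where 12% of all genes were called. With the block 4 were up and 1 down at myclobutanil 100 uM, 6 up and 2 down at propiconazole 100 uM and 3 up and 1 down at triadimefon 100 uM, against 9.92%, 29.3% and 11.8% of all genes. Without the block the mitochondrial carrier Slc25a39 rose at propiconazole 100 uM by 0.41, the heme transporter Slc48a1 by 0.39 and the mitochondrial transporter Abcb10 by 0.19, and the heme scavenger Hpx fell by 0.26 (adjusted p = 0.0004, 0.00711, 0.00797 and 0.00227). The list's median was 0.08 there. Slc25a39, Slc48a1 and Hpx were called in the same direction at 100 uM of all 3 triazoles with the block. Of 12 regulators of Alas1, propiconazole at 100 uM raised Lonp1, a mitochondrial protease, by 0.82 (adjusted p = 0.000421) and lowered Foxo1, a transcription factor, by 0.44 (0.00977), with a list median of -0.01. No other regulator was called there without the block, where 12% of all genes were, so this count is near its background. With the block Lonp1 also rose with myclobutanil at 100 uM by 0.46 (adjusted p = 0.000328) and with triadimefon at 100 uM by 0.48 (0.000184). It was the 1 regulator of 12 called in each, near the 9.92% and 11.8% of all genes. At propiconazole 100 uM the blocked calls were 1 up and 2 down, against 29.3%. The receptors named for PB and PCN induction, Nr1i3 and Nr1i2, were not called without the block at 100 uM of any triazole or with PB or PCN, and with it Nr1i3 fell by 0.26 with propiconazole (0.0315).

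Among 9 tested genes of 13 that supply electrons by other routes, propiconazole at 100 uM raised Cyb5b, the outer mitochondrial cytochrome b5, by 0.40 (adjusted p = 1.06e-05) and lowered Nnt, which makes mitochondrial NADPH, by 0.39 (0.0109). No other gene of the list was called there without the block, where 12% of all genes were. With the block 1 of the 9 was up at myclobutanil 100 uM, near the 9.92% of all genes called there. At both propiconazole 100 uM and triadimefon 100 uM 2 were up and 2 down, against 29.3% and 11.8% of all genes. Cyb5b was then also called with myclobutanil (0.16, adjusted p = 0.0233) and Nnt with triadimefon (-0.30, 0.00606). Of 35 tested P450 genes of 47, 5 rose and 10 fell at propiconazole 100 uM, 3 rose and 2 fell at myclobutanil 100 uM, and 2 rose and 3 fell at triadimefon 100 uM. The shares of all genes called there were 12%, 1.21% and 1.83%. With the block these counts were 7 and 16, 5 and 10, and 5 and 8, against 29.3%, 9.92% and 11.8% of all genes. The P450s with the smallest adjusted p at propiconazole 100 uM were Cyp4a3 (-2.01, adjusted p = 1.74e-08), Cyp2j4 (-0.71, 2.65e-05), Cyp4a1 (-1.91, 0.000515) and Cyp2j3 (-0.62, 0.000645). Called without the block at 100 uM of all 3 triazoles were Cyp2c6v1, Cyp3a23-3a1 and Cyp4a3. With myclobutanil, propiconazole and triadimefon, Cyp2c6v1 rose by 1.42, 1.31 and 1.27 and Cyp3a23-3a1 by 0.91, 0.79 and 0.90. Cyp4a3 changed by -1.21, -2.01 and -0.94.

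A list of 9 enzymes outside the P450 family, drawn up as users of cytochrome b5, its reductase or Por, held genes called up at 100 uM of every triazole. Of 9 tested, 3 were called up at myclobutanil 100 uM, 5 at propiconazole 100 uM and 4 at triadimefon 100 uM without the block, and none down, against 1.21%, 12% and 1.83% of all genes. With the block 6 were called up in each, and 1 was called down, the sterol reductase Dhcr7 at propiconazole 100 uM (-0.20, adjusted p = 0.0421), which is named after its value was seen. The list medians were 0.35, 0.44 and 0.33. The stearoyl-CoA desaturase Scd2 rose by 1.74, 2.01 and 2.08 and the fatty acid desaturase Fads2 by 0.45, 0.72 and 0.85 at 100 uM of myclobutanil, propiconazole and triadimefon. The sterol desaturase Sc5d rose by 0.39, 0.49 and 0.35. PB and PCN had no gene of these lists called without the block, and with it 1 of the 35 P450 genes rose with each. These counts leave out Cyp2b1, Cyp2b2, Cyp2b15, Cyp2c24, Cyp2d1, Cyp2d5, Cyp3a62, Cyp3a73 and Cyp4a2, which had no probe set annotated to them alone. Cyp2a3, Cyp2b12 and Cyp7b1 did not pass the filter on low values. The response of these P450 genes to PB and PCN was therefore not tested. Uros was the only other heme synthesis enzyme tested and was not called at 100 uM of any triazole, in either fit.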

How the data were processed

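The authors deposited 1 score per probe set and array, on a scale that looks logarithmic, for 31099 Affymetrix rat probe sets and 35 arrays. The labels' protocols give extraction and hybridization. The base, probe summary and normalization are not given in the sources used here. Arrays were quantile-normalized. A gene is the brightest probe set annotated to it alone (symbols from the platform's annotation, updated through gene identifiers), tested if above the array median in at least 2 of 35 arrays. limma 3.58.1 in R 4.3.3 (lmFit, eBayes, all 35 arrays, 1 mean per group) gave two-sided tests with Benjamini-Hochberg adjustment over 10490 genes per comparison, against a threshold of 0.05. Errors are standard errors (SE) or standard deviations (SD). Precision is limited by the number of arrays, at most 3 a group.

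The Rs code entered as a block in a second fit. The codes come from the sample titles. After removal of group means, arrays of a code correlated positively in all 187 pairs from different groups (lowest r = 0.037, median 0.634). Among pairs from groups that were compared the lowest r was 0.277. The median over 374 pairs of different codes was -0.355. Deviations within a group cancel out, so that lower median is not a separate result. The codes therefore pair the arrays, and blocked values stand beside the others. The fits were checked on simulated data.

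The members, gene lists, promoter motifs and neighbour rule were chosen with earlier results of these data known, as was quantile normalization as the main setting. Named are all 9 members, for each list at most 4 genes with the smallest adjusted p, and 5 pattern neighbours each of Alas1 and Por. Dhcr7, Cyp2c6v1, Cyp3a23-3a1 and, as a hepatocyte marker, Cyp2c11 are also named, after their values were seen. Nr1i2 and Nr1i3 are named for their part in PB and PCN induction, not by adjusted p. P450 genes that were not tested are named as such. Promoter windows are from RefSeq (GRCr8), and figures used Python 3.11.15 with matplotlib 3.10.9.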

Additional observations from a re-analysis of the deposited data

Results flagged for a closer look

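Both results given here are differences between triazoles at a matched dose that passed the test with the Rs code as a block. Alas1 was lower with propiconazole than with myclobutanil at 100 uM, with a difference of -0.52 units. Cyb5r3 was lower in the same comparison, with a difference of -0.15 units. Neither passed without the block, and both lost the call on leaving out 1 of several arrays, as given with the comparison above. Single arrays were not tested as outliers of their group.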

How the results depend on the processing

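Without the block, all counts of members called were kept under the other filters, both other gene summaries and without the wide propiconazole array. The propiconazole slope went to 0 of 1 under values as deposited, median centring and only the compared groups. The replicate block gave 3 members called for each triazole at 100 uM, 2 and 1 for propiconazole and triadimefon at 30 uM, 2 for propiconazole against myclobutanil at 100 uM, 2, 3 and 1 for the slopes of myclobutanil, propiconazole and triadimefon, and 6 in the F test. Leaving out replicates moved counts between 0 and 1 for the myclobutanil and propiconazole changes at 100 uM and both their slopes. With the block, values as deposited and median centring gave 0 in each of these 10 counts. The cause was not tested. With the wide array also left out, each gave 1 for propiconazole and triadimefon at 100 uM, the myclobutanil slope and the F test, and 0 for both 30 uM counts, the pair and the triadimefon slope, and median centring gave 1 for the propiconazole slope. Only the compared groups gave 0 for propiconazole 30 uM and for the pair, 1 for triadimefon 100 uM and the propiconazole slope, and 2 for the triadimefon slope, with fewer arrays. The mean of probe sets gave 1 for propiconazole 30 uM. Leaving out replicates with the block gave 0 to 2 for propiconazole 30 uM, 0 to 1 for triadimefon 30 uM and its slope, 1 to 3 for triadimefon 100 uM and both other slopes, and 0 to 3 for the pair and the F test. The code test went to 3 of 7 as deposited or median centred, and ran from 4 to 6 with a code left out. Of 439 alternative values of the 21 called member changes, 269 stayed called, 170 were no longer called and 0 reversed.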
